A study of Mus musculus with 8 samples.

Results

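The genes described here are 10 immediate early transcription factors of the mouse heart, namely Egr1, Egr2, Egr3, Fos, Fosb, Jun, Junb, Atf3, Ier2 and Nr4a1. They were chosen by symbol from the 43346 genes that the count table lists, with earlier results of these data known, and all 10 were found and passed the filter on low counts. RNA was sequenced from the cardiac ventricles of 8 C57BL/6 male mice, of which 4 carried LLC1 tumors and 4 had received PBS vehicle. LLC1 is a transplantable mouse Lewis lung carcinoma line, and the injection of 1000000 cells was subcutaneous, at 7 weeks of age. Per the labels, heart function was measured by echocardiography and the tissue taken 14 days after the injection, and the study's methods name isoflurane for the scan and carbon dioxide for euthanasia. The labels name no altered allele in either group, and each library came from 1 mouse, named here by its group and the replicate code of its label (LLC1 1-2, 1-3, 1-5 and 2-2, and PBS 1-1, 1-3, 2-1 and 2-5). The design is a model of a fast-growing transplant in young males, seen at 1 time point.

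Immediate early genes are switched on within minutes of a stimulus from factors already present in the cell, with no need for new protein, and their transcripts are short-lived. Growth factors, stretch, adrenergic signals, ischemia and anesthesia or tissue handling are known to induce them in the heart, through ERK acting on serum response factor (SRF) with its ETS-family partners and through CREB. The EGR proteins are zinc finger factors held in check by the NAB corepressors, FOS and JUN proteins pair as AP-1, ATF3 is a stress-induced member of the ATF/CREB family, IER2 is a small nuclear protein, and NR4A1 is an orphan nuclear receptor.

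SRF is known to bind the CArG box and CREB the CRE, and the sequences before the start sites of these genes were searched for both. Windows of 4 genes are shown because the genes behind them had different fold changes. RefSeq windows of GRCm38.p6, the assembly behind mm10, matched 7 of the 10 genes by symbol (Atf3, Jun, Fosb, Junb, Egr2, Fos and Nr4a1). Capitals mark matches, on either strand, to the CArG box (CC, a run of A or T bases, then GG) and to the CRE half-site TGACG.
Egr2, chr10:67537619-67537868, plus strand: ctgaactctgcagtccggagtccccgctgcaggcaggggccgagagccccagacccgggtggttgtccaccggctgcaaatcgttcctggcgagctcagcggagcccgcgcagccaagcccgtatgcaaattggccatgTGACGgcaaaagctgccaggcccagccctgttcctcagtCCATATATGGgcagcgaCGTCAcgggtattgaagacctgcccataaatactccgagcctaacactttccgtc
Fos, chr12:85473640-85473889, plus strand: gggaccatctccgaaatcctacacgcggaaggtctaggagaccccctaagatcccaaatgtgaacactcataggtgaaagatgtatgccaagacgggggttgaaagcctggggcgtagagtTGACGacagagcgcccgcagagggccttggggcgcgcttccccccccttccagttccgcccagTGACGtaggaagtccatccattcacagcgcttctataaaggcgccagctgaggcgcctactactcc
Jun, chr4:95052223-95052472, minus strand: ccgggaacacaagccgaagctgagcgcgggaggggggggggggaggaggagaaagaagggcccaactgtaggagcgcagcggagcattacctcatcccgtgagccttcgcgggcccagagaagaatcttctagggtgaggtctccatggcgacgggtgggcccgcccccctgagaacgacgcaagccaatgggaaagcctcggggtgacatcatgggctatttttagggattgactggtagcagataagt
Nr4a1, chr15:101266596-101266845, plus strand: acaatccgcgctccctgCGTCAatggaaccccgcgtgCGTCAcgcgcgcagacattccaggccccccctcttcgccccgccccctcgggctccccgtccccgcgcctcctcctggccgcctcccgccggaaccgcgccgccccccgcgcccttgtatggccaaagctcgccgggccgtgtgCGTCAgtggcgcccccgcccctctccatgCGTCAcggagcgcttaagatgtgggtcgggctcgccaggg

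Each window is the 250 bases before a RefSeq transcript start, read 5′ to 3′ along the gene. The Egr2 window lies inside introns of longer transcripts of that gene, and the window of Nr4a1 lies inside an intron of a longer Nr4a1 transcript. Egr2 has 5 such windows, of which 4 hold a CArG box, but these windows are not independent, since 3 of them overlap and share the box shown above. Over all genes, 1.47% of the 32851 windows hold one. No other gene of the 7 had one within these bases. The CRE half-site was found for 6 of the 7, Jun being the exception, and it occurs in 17.8% of all windows. The whole CRE, in which TGACG runs straight on into TCA, was found in none of the 7 genes and in 1.55% of all windows. A match is a description of the letters, and no match says nothing on a factor's binding or on bases outside the window. A link between matches and fold changes was not tested, and Egr1, Egr3 and Ier2 had no window.

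Gene counts per library ranged from 15342214 to 19747596 in LLC1 mice and from 12480706 to 16192158 in PBS mice. Of the listed genes, 16111 were tested. Levels are given as counts per 1000000 counts (CPM) after TMM scaling, fold changes are LLC1 over PBS on the log2 scale with the standard error (SE) from edgeR's quasi-likelihood test, and FDR is that test's p-value adjusted over all genes tested. The ventricle was well marked by cardiomyocyte genes, whose 8 markers summed to 94728 to 101719 CPM in LLC1 mice and 85750 to 88564 CPM in PBS mice. Library PBS 1-1 stood apart in the heat shock genes Hspa1a and Hspa1b, a near-identical pair whose reads may be split between them, with 37.3 and 40.3 CPM. In the other 3 PBS mice they ranged from 2.77 to 9.25 CPM and from 2.12 to 7.85 CPM, and in LLC1 mice from 4.41 to 7.94 CPM and from 3.61 to 7.94 CPM. Results below are therefore also given without PBS 1-1 where it changes them.

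The 3 EGR genes were lower in the ventricles of tumor-bearing mice and no value of any LLC1 mouse reached that of any PBS mouse. The other 7 genes did not pass the test in either direction. All 10 log2 fold changes were below 0, where 52.1% of all genes tested were, with a median of -0.76 against -0.01 over all genes. Without PBS 1-1 that median was -0.73, and 7 of the 10 were below 0. Without PBS 2-5 the median was -0.49, and 9 of the 10 were below 0. Counted by FDR under 0.05, 3 of 10 were lower and 0 were higher, against 4.61% lower and 4.12% higher of all genes tested (8.73% in either direction). Without overlap of the groups, 3 of 10 were lower and 0 higher, against 8.27% and 8.89% of all genes tested. By edgeR's unadjusted p under 0.05, 6 of the 10 were lower and 0 higher, against 13.0% and 12.4% of all genes tested. Of these 6, Fos, Fosb and Ier2 had overlapping groups, with p of 0.114, 0.114 and 0.257 in an exact permutation test of log2 CPM. With DESeq2 3 of the 10 were lower and 0 higher, against 5.23% and 5.62% of all genes tested. In whole tissue, fewer cells of a type and less RNA per cell cannot be told apart.

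Egr1 (ENSMUSG00000038418, chromosome 18, 34859823 to 34864984 in mm10), the best known of the EGR factors, is induced by growth signals and mechanical load. Its levels were 31.1, 37.7, 40.1 and 24.3 CPM in LLC1 mice 1-2, 1-3, 1-5 and 2-2, and 119, 59.9, 62.6 and 147 CPM in PBS mice 1-1, 1-3, 2-1 and 2-5. The groups did not overlap, and the PBS mice fell into a pair near 60 CPM and a pair above 100 CPM. The means were 33.3 ± 7.10 CPM and 97.1 ± 43.0 CPM (SD, n = 4), 2.92-fold lower in LLC1 mice (log2 fold change -1.55, SE 0.27, FDR = 0.00690 in edgeR's test). The exact permutation test gave p = 0.0286, 2-sided, the smallest that 4 mice against 4 allow.

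Egr2 (ENSMUSG00000037868, chromosome 10, 67535475 to 67542188), known for its role in myelination, was scarce. It had 0.662, 0.922, 0.602 and 0.553 CPM in the LLC1 mice, in the same order, and 2.66, 2.10, 0.942 and 2.36 CPM in the PBS mice. These levels rest on 10 to 14 counts per LLC1 mouse and 16 to 40 counts per PBS mouse, and the closest values, LLC1 1-3 and PBS 2-1, almost met. The log2 fold change was -1.54 (SE 0.33, FDR = 0.0161 in edgeR's test).

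Egr3 (ENSMUSG00000033730, chromosome 14, 70077445 to 70080157), a factor needed for muscle spindles, was similarly scarce, with 6 to 15 counts per LLC1 mouse and 17 to 29 per PBS mouse. The LLC1 mice had 0.397, 0.461, 0.438 and 0.755 CPM and the PBS mice 2.49, 1.54, 1.00 and 1.53 CPM. Here PBS 1-1 was the highest and LLC1 2-2 was the highest of its group, still below PBS 2-1. Its log2 fold change of -1.60 (SE 0.33, FDR = 0.0143 in edgeR's test) was the lowest of the 10 genes. Without PBS 1-1, the EGR log2 fold changes were -1.44 for Egr1, -1.40 for Egr2 and -1.36 for Egr3, with FDR of 0.00519, 0.0187 and 0.0147 in edgeR's test.

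**Figure D1:**
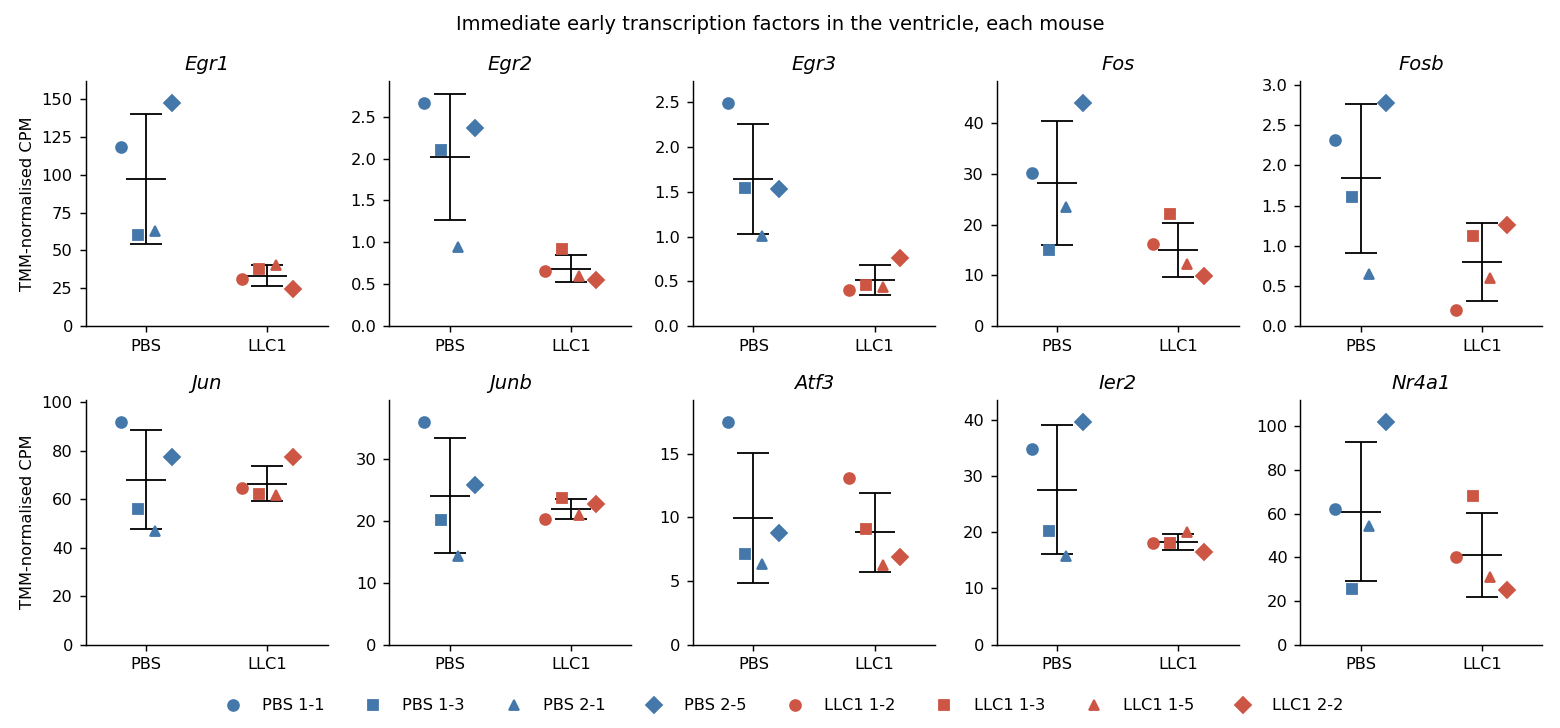
TMM-normalised CPM (vertical axes, each starting at 0) of the 10 genes in each of 4 PBS mice (blue) and 4 LLC1 mice (red), with marker shape giving the mouse and black lines the mean ± SD. For Egr1, Egr2 and Egr3 every red point lies below every blue point, while in the other panels the groups overlap.

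The FOS genes had lower means in tumor-bearing mice, but their groups overlapped and neither passed the test. Fos (ENSMUSG00000021250, chromosome 12, 85473890 to 85477273), the classic partner of JUN in AP-1, had 16.1, 22.1, 12.3 and 9.81 CPM in LLC1 mice and 30.1, 14.9, 23.5 and 43.9 CPM in PBS mice. PBS 1-3, at 14.9 CPM, lay within the LLC1 range, and PBS 2-5 was the highest of all. Its log2 fold change was -0.92 (SE 0.30, FDR = 0.0778 in edgeR's test), and the exact permutation p was 0.114. Without PBS 1-3 it was -1.13 (FDR = 0.0431 in edgeR's test), and without PBS 2-5 it was -0.61 (FDR = 0.159), so that 1 library decides this call.

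Fosb (ENSMUSG00000003545, chromosome 7, 19302721 to 19310045), the FOS relative of which a truncated form builds up under repeated stimulation, ranged from 3 to 25 counts in LLC1 mice and from 11 to 47 counts in PBS mice. Its levels were 0.198, 1.119, 0.602 and 1.26 CPM in LLC1 mice and 2.32, 1.61, 0.647 and 2.77 CPM in PBS mice. The PBS mouse 2-1 was as low as LLC1 1-5, and the 3 other PBS mice lay above all LLC1 mice. Its log2 fold change of -1.16 had the largest standard error of the 10 genes (SE 0.48, FDR = 0.153 in edgeR's test).

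Jun and Junb were at about the same mean level in both groups. Jun (ENSMUSG00000052684, chromosome 4, 95049034 to 95052222), the main AP-1 subunit, had 64.5, 62.3, 61.7 and 77.3 CPM in LLC1 mice and 92.0, 55.8, 46.9 and 77.4 CPM in PBS mice. The LLC1 values lay inside the PBS range. The log2 fold change was -0.03 (95% interval -0.37 to 0.31, FDR = 0.939 in edgeR's test), an interval that leaves out a change as large as that of the EGR genes. Of its exon bases, 7.28% overlap the antisense gene Junos, and without knowledge of strand their reads cannot be told apart. Junos had at most 269 counts in a mouse.

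Junb (ENSMUSG00000052837, chromosome 8, 84976909 to 84978748), a JUN relative that can restrain it, had 20.3, 23.7, 20.8 and 22.7 CPM in LLC1 mice and 35.9, 20.1, 14.3 and 25.8 CPM in PBS mice. In GENCODE M21, 7.52% of its exon bases overlap Prdx2 on the other strand, though the spans listed with the counts do not overlap. Again the LLC1 mice lay close together within the PBS range. The log2 fold change was -0.12 (95% interval -0.53 to 0.29, FDR = 0.760 in edgeR's test). Atf3 (ENSMUSG00000026628, chromosome 1, 191170296 to 191218039) had 13.1, 9.09, 6.24 and 6.84 CPM against 17.5, 7.15, 6.36 and 8.80 CPM, a log2 fold change of -0.16 (95% interval -0.77 to 0.45, FDR = 0.787 in edgeR's test). The direction of these 3 genes turned without PBS 1-1, to log2 fold changes of 0.15 for Jun, 0.13 for Junb and 0.23 for Atf3, none of which passed edgeR's test.

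Ier2 and Nr4a1 had lower means in LLC1 mice that did not pass the test. Ier2 (ENSMUSG00000053560, chromosome 8, 84661331 to 84662852) had 18.1, 18.1, 20.0 and 16.5 CPM in LLC1 mice, a narrow range, and 34.8, 20.1, 15.7 and 39.6 CPM in PBS mice. PBS 2-1 was the lowest of all 8, and PBS 1-1 and 2-5 stood well above the rest. The log2 fold change was -0.60 (SE 0.24, FDR = 0.138 in edgeR's test), and it was -0.80 without PBS 2-1 (FDR = 0.0308) and -0.36 without PBS 2-5 (FDR = 0.291).

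Nr4a1 (ENSMUSG00000023034, chromosome 15, 101266846 to 101274792) varied within both groups, with 40.0, 68.2, 30.9 and 25.0 CPM in LLC1 mice and 62.1, 25.3, 54.1 and 102 CPM in PBS mice. PBS 1-3 was as low as LLC1 2-2, and LLC1 1-3 was higher than 3 of the PBS mice. Between the groups the log2 fold change was -0.58 (SE 0.37, FDR = 0.347 in edgeR's test), and it ran from -0.94 without LLC1 1-3 to -0.21 without PBS 2-5.

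**Figure D2:**
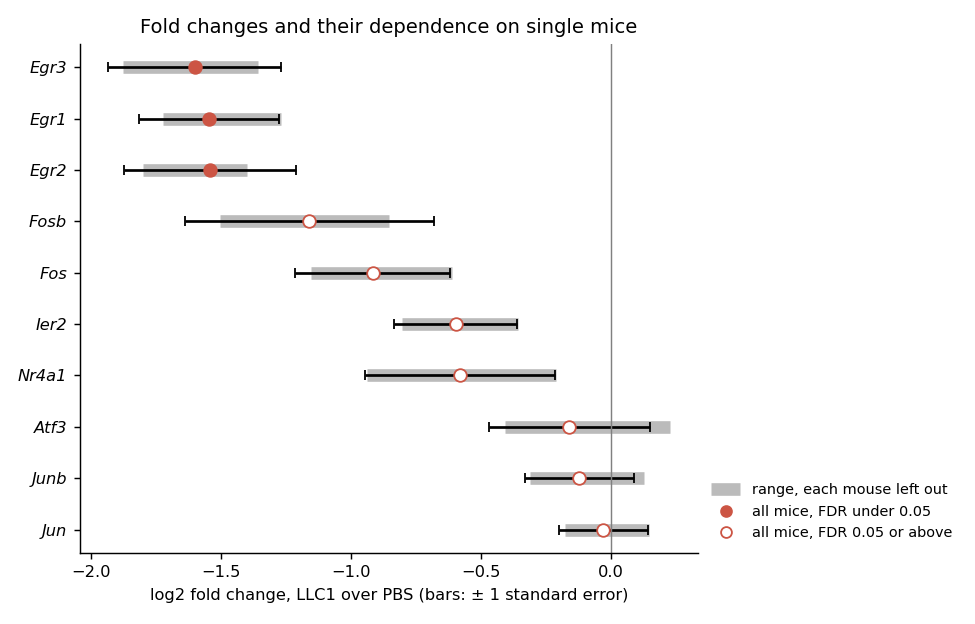
Log2 fold changes of LLC1 over PBS (horizontal axis) for the 10 genes, with bars of ± 1 SE from edgeR and grey bands for the range when each of the 8 mice was left out in turn. The filled points of Egr1, Egr2 and Egr3 (FDR under 0.05) and their bands lie below -1.2, whereas the bands of Jun, Junb and Atf3 cross 0.

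The levels were also set against each other within a mouse. The difference in log2 CPM between 2 genes was taken in each mouse for all 45 pairs, a value on which the scaling of libraries has little bearing. LLC1 and PBS mice were apart, with no overlap, in 14 of the 45 pairs, against 15.6% of all pairs of genes tested. Of the 14, 11 were among the 21 pairs of an EGR gene with another gene, which restate in part the EGR genes' own separation of the groups, and 0 among the 3 pairs of EGR genes. Egr1 minus Jun ranged from -1.66 to -0.62 in LLC1 mice and from 0.10 to 0.93 in PBS mice, so Egr1 had fewer counts than Jun in every tumor-bearing mouse and more in every PBS mouse. Egr1 minus Junb differed by -1.40 and Egr1 minus Fos by -0.60, the latter with overlapping groups (exact permutation p = 0.0571). The smallest exact permutation p of a pair was 0.0286, and none passed after adjustment over the 45 pairs (smallest 0.0918).

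Among the 21 pairs without an EGR gene, the groups did not overlap for 3, a share near the 15.6% of all gene pairs, namely Fos with Nr4a1, Jun with Ier2 and Junb with Ier2. The log2 difference of Fos and Nr4a1 had an SD of 0.15 in LLC1 mice and 0.21 in PBS mice, while each alone varied with an SD of 0.50 to 0.83. That of Jun and Junb was about as close, with SDs of 0.16 and 0.15, and its groups overlapped. Fos minus Nr4a1 ranged from -1.62 to -1.30 in LLC1 mice and from -1.21 to -0.76 in PBS mice.

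For most of the 10 genes, the PBS mice differed more among themselves than the tumor-bearing mice did. The SD of log2 CPM was larger in PBS mice for 9 of the 10 genes, with Fosb as the exception, where 67.8% of all genes tested had the larger SD in PBS mice. Leaving out PBS 1-1, 1-3 or 2-1 made it 8 of the 10. The median SD over the 10 genes was 0.331 in LLC1 mice and 0.640 in PBS mice, against 0.126 and 0.175 over all genes tested. Related lists had the wider PBS spread too, with medians of 0.179 and 0.405 for the other immediate early genes (larger in PBS mice for 32 of 39) and of 0.127 and 0.669 for the heat shock genes (7 of 7). Without PBS 1-1, the PBS median of the heat shock genes was 0.414, still larger for 7 of 7. Not all lists did so. The SD was larger in PBS mice for 0 of 5 erythroid markers (medians of 0.805 in LLC1 mice and 0.430 in PBS mice), 0 of 4 smooth muscle markers and 3 of 8 cardiomyocyte markers. Ier2 had SDs of 0.113 in LLC1 mice and 0.634 in PBS mice, and Junb 0.104 and 0.560. These are descriptions of 4 mice a group, with no test.

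**Figure D3:**
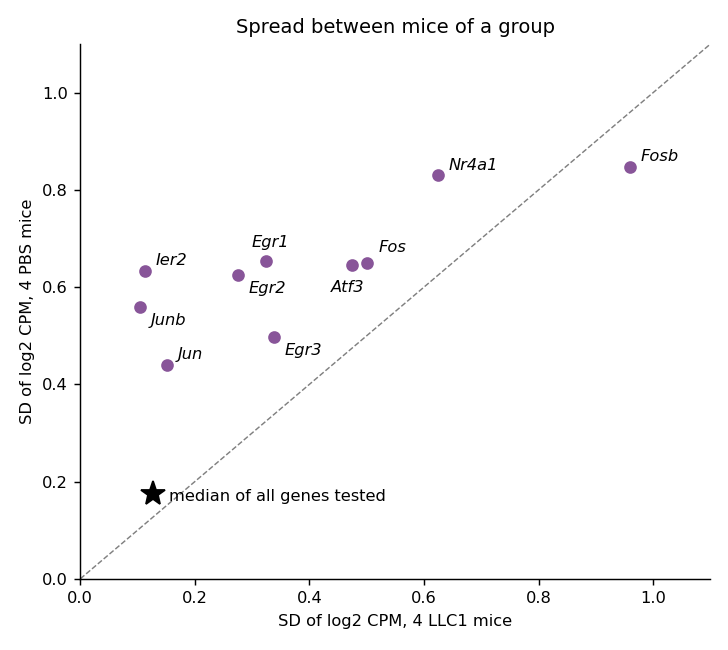
SD of log2 CPM over the 4 LLC1 mice (horizontal axis) and the 4 PBS mice (vertical axis) for each of the 10 genes (points), with the median of all genes tested (star) and the line of equal SD (dashed). All points but Fosb lie above the line, and all lie above the star.

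The highest PBS values came from 2 mice. PBS 1-1 was the highest of its group for Egr2, Egr3, Jun, Junb and Atf3, and PBS 2-5 for Egr1, Fos, Fosb, Ier2 and Nr4a1. PBS 2-1 was the lowest PBS mouse for 7 genes, and PBS 1-3 for Egr1, Fos and Nr4a1. In the LLC1 group no mouse led throughout, LLC1 2-2 being the lowest for 5 genes and the highest for 3.

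Heat shock genes, which respond to protein damage and temperature, were high in PBS 1-1 but not in PBS 2-5. The 7 heat shock genes summed to 2512 CPM in PBS 1-1, to 1981, 1377 and 1401 CPM in PBS 1-3, 2-1 and 2-5, and to 1500 to 1755 CPM in LLC1 mice. None of the 7 passed edgeR's test, with the lowest FDR of the list in Hsp90aa1, a cytosolic chaperone (FDR = 0.250, log2 fold change -0.49), and their median log2 fold change was -0.49. These values rest on PBS 1-1. Without it the median was 0.02, 3 of the 7 were below 0, and Hsp90aa1 was at -0.12 (FDR = 0.652 in edgeR's test). The part of handling at collection in the levels of the 10 genes was not tested, and the EGR genes were lower without PBS 1-1 too, with the values given above.

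**Figure D4:**
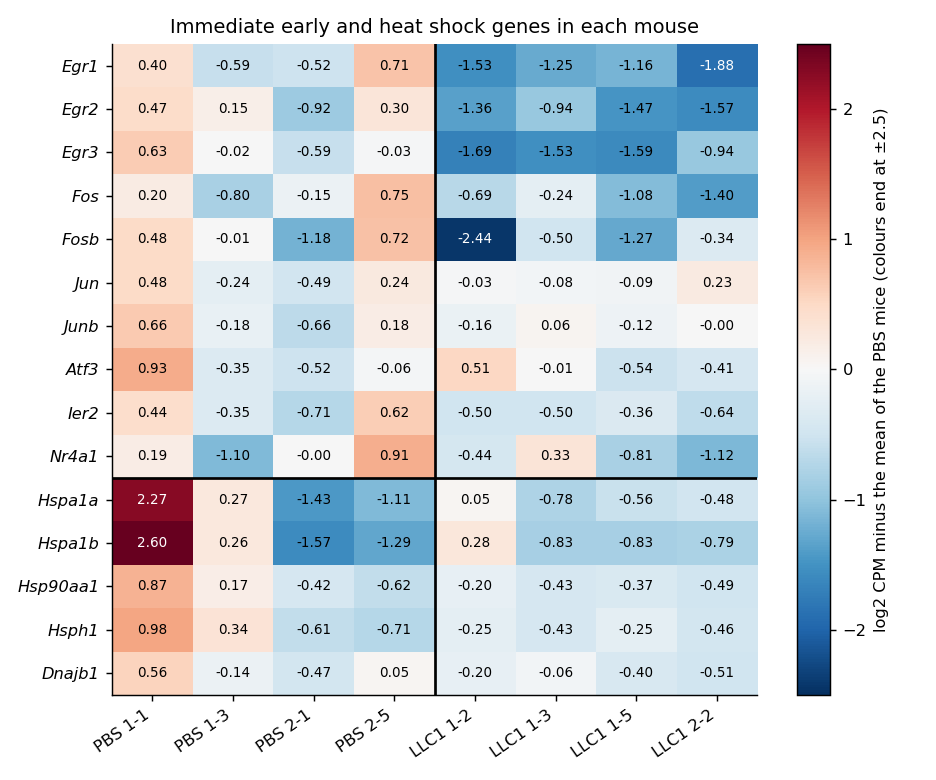
Log2 CPM minus the mean of the 4 PBS mice, written in each cell and coloured from blue (lower) to red (higher), for the 10 genes and 5 heat shock genes (rows) in each mouse (columns). The LLC1 columns are below 0 in every cell of Egr1, Egr2 and Egr3, and the heat shock rows are highest in PBS 1-1.

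Between genes, levels were compared per length as RPKM (CPM per kilobase of the length listed for the gene). With the listed lengths, the order by mean in PBS mice was Nr4a1 (24.6 RPKM), Egr1 (21.7), Jun (21.3), Ier2 (18.1), Junb (13.1), Fos (11.96), Atf3 (4.62), Egr3 (1.16), Egr2 (0.593) and Fosb (0.490). Only between Atf3 and Egr3 did the ranges of neighbours not overlap. In LLC1 mice the order was Jun (20.8 RPKM), Nr4a1 (16.6), Ier2 (11.93), Junb (11.90), Egr1 (7.42), Fos (6.41), Atf3 (4.09), Egr3 (0.362), Fosb (0.212) and Egr2 (0.201), and the ranges of neighbours did not overlap between Junb and Egr1 and between Atf3 and Egr3. Egr1 thus lay above Jun, Ier2 and Junb by mean in PBS mice and below them in LLC1 mice. This order depends on the annotation, since the exons of GENCODE M21 cover more bases than the listed length for Egr3 (4406 against 1416), Fosb (6243 against 3751), Nr4a1 (3509 against 2474) and Junb (2301 against 1840). With the M21 lengths, a choice made after seeing the data, the order in PBS mice was Egr1, Jun, Ier2, Nr4a1 (17.4 RPKM), Fos, Junb (10.4), Atf3, Egr2, Egr3 (0.373) and Fosb (0.294), with the only gap between Atf3 and Egr2. In LLC1 mice it was Jun, Ier2, Nr4a1 (11.7 RPKM), Junb (9.51), Egr1, Fos, Atf3, Egr2, Fosb (0.127) and Egr3 (0.116), with gaps between Jun and Ier2 and between Atf3 and Egr2.

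Most other immediate early genes did not pass the test in either direction. Of 41 listed, 39 were tested (Egr4 and Dusp2 were too low), 2 were lower and 1 was higher, against 4.61% and 4.12% of all genes tested, and the median log2 fold change was -0.02. Plk2, a serum-inducible polo-like kinase, was lower, at 28.6 ± 2.51 CPM against 42.0 ± 1.496 CPM (SD, n = 4; log2 fold change -0.56, FDR = 0.00183 in edgeR's test). Plk3, its relative, was lower too, with 2.12, 2.502, 2.46 and 3.82 CPM in LLC1 mice and 5.49, 5.05, 4.65 and 6.73 CPM in PBS mice (log2 fold change -0.99, FDR = 0.0118 in edgeR's test). Cebpd, a factor of the acute phase response, was higher, at 12.04 ± 1.79 CPM against 6.74 ± 2.72 CPM (SD, n = 4; log2 fold change 0.87, FDR = 0.0350 in edgeR's test), but PBS 1-1 lay within the LLC1 range, and the call was lost in 7 of the 8 fits that left out 1 mouse. Of these 3 genes, the groups of Plk2 and Plk3 did not overlap.

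Among the factors upstream of the response, of 17 (SRF, its cofactors, CREB factors, MEF2 factors and the ERK kinases) 1 was lower and 0 were higher, against 4.61% and 4.12% of all genes tested, with a median log2 fold change of -0.05. The 1 was Elk3, an ETS-family partner of SRF, at 38.7 ± 3.75 CPM against 51.1 ± 2.21 CPM (SD, n = 4; log2 fold change -0.40, FDR = 0.0109 in edgeR's test).

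Of the EGR corepressors, Nab1 was lower, at 24.3 ± 0.880 CPM against 30.5 ± 2.67 CPM (SD, n = 4; log2 fold change -0.33, FDR = 0.0240 in edgeR's test). Nab2, itself an EGR target, had a log2 fold change of -0.26 (FDR = 0.160 in edgeR's test). Of 10 tested partners and relatives of AP-1, 0 were lower and 1 was higher, against 4.61% and 4.12% of all genes tested. The 1 was Mafk, a small MAF protein, with a log2 fold change of 0.33 (FDR = 0.0442 in edgeR's test).

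Of 10 tested feedback and output genes of ERK signalling, 2 were lower and 1 was higher, against 4.61% and 4.12% of all genes tested, with a median log2 fold change of -0.12. Dusp6, the phosphatase that inactivates ERK, had 22.2, 23.1, 21.1 and 20.0 CPM in LLC1 mice and 29.9, 32.5, 28.1 and 37.0 CPM in PBS mice (log2 fold change -0.56, FDR = 0.00513 in edgeR's test). Spred1, an inhibitor of RAS and ERK signalling, was lower by a log2 fold change of -0.38 (FDR = 0.0188), and Etv5, an ETS factor, was higher by 0.57 (FDR = 0.0237), both in edgeR's test. The calls of Nab1, Mafk, Spred1 and Etv5 each were lost in 4 to 6 of the 8 fits that left out 1 mouse, whereas those of Plk2, Plk3, Elk3 and Dusp6 were kept in all 8.

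**Figure D5:**
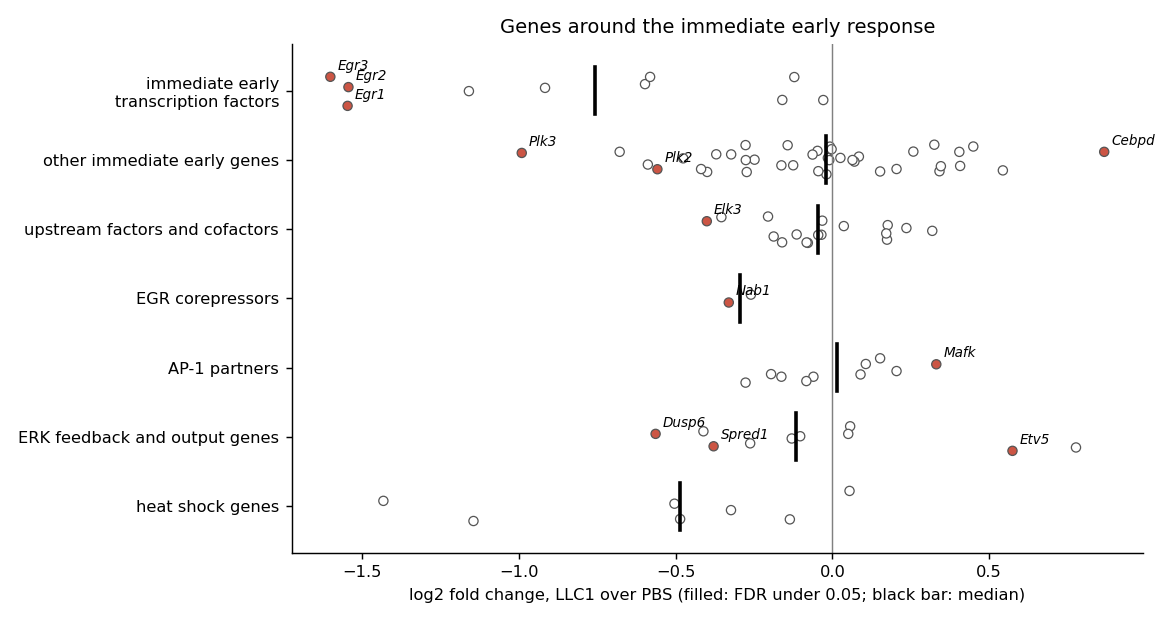
Log2 fold changes of LLC1 over PBS (horizontal axis) for every tested gene of 7 lists (rows), with filled, named points for FDR under 0.05 in edgeR's test and black bars for the list medians. The median of the immediate early transcription factors is -0.76, and that of the other immediate early genes is -0.02.

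Some markers of other cells of the ventricle differed between the groups, read against 4.61% lower and 4.12% higher of all genes tested. Of 7 endothelial markers, Emcn and Kdr were lower and Flt1 was higher, Pecam1 had a log2 fold change of -0.19 (FDR = 0.168 in edgeR's test), and the list summed to 894 to 1014 CPM in LLC1 mice and 957 to 1221 CPM in PBS mice. Of 7 fibroblast markers, Col3a1, Col1a2, Lum and Col1a1 were lower and Pdgfra had a log2 fold change of -0.07, with sums of 960 to 1072 CPM and 1068 to 1552 CPM. Of 5 macrophage markers found, Mrc1 and Lyz2 were lower, with sums of 207 to 246 CPM and 234 to 336 CPM. Of the dividing cell markers, the 3 tested were all lower, Mki67 by a log2 fold change of -2.96, Top2a of -3.33 and Ccna2 of -0.69, and the list, with the untested Ccnb1 included, summed to 6.22 to 8.48 CPM and 18.5 to 48.3 CPM. The neutrophil markers S100a8 and S100a9 were higher at low levels, with the sum of that list at 1.66 to 2.70 CPM in LLC1 mice and 0.413 to 1.20 CPM in PBS mice. Myh6 was the 1 of 8 cardiomyocyte markers that was higher. No smooth muscle, erythroid or atrial marker passed the test, the lowest FDR being 0.0595 for Acta2 (log2 fold change -0.54), 0.400 for Hba-a2 (0.52) and 0.0985 for Myl4 (-0.59) in edgeR's test, and the adipocyte markers were too low to be tested, with Ucp1 at 0 in every mouse. The part of these cells in the levels of the 10 genes was not tested.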

How the data were processed

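Ventricular RNA of 8 mice was sequenced (TruSeq v2, which does not mark strand, 150-base paired ends). The authors deposited unnormalized read counts for every gene and mouse, with gene lengths. The submitters' processing notes name CASAVA, STAR, featureCounts and mm10, and the strand setting and annotation are not given in the sources used here. The 10 genes and all gene lists were chosen with earlier results of these data known. Groups are those of the stated treatment. The p-values of edgeR rest on the spread between mice, drawn toward that of all genes, which can understate it for variable genes. With robust empirical Bayes the SE was 0.36 for Egr1 and 0.50 for Nr4a1, against 0.27 and 0.37 in the main fit. Counts were fitted for all genes passing filterByExpr with edgeR 4.0.16 (R 4.3.3), TMM factors, the quasi-likelihood F-test and Benjamini-Hochberg adjustment, a call being an FDR under 0.05. The SE is the size of the log2 fold change divided by the square root of F. A 95% interval is 1.96 SE to each side, an approximation that is somewhat narrower than the F-test itself would give. The exact permutation test used log2 CPM (prior count 2) over 70 arrangements. Depth sets the precision: Egr2, Egr3 and Fosb rest on at most 47 counts per mouse. Named were the 10 genes, every gene of the other lists past the FDR, the gene of lowest p in a list without one, the first of each marker list and the 8 genes with the most similar profile over mice. Alternatives were DESeq2 1.42.0, limma-voom (limma 3.58.1), robust empirical Bayes, upper-quartile and total-count scaling, all genes with a count, at least 10 counts in every mouse, the leading digit of the replicate code as a covariate and each mouse left out. GENCODE M21 exon lengths for RPKM were added after the data were seen. Motifs, overlaps and figures used Python 3.11.15. The fit was tested on simulated counts with known fold changes, drawn with the spread typical of all genes at a given level. That test does not show how the fit fares for genes as variable as these 10.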

Additional observations from a re-analysis of the deposited data

How the results depend on the processing

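The count of immediate early transcription factors lower in LLC1 mice was 2 to 4 with each mouse left out, 4 with all genes with a count and 2 with at least 10 counts in every mouse, where Egr3 and Fosb were not tested, and 3 in the other 6 settings, with 0 higher in every setting. Egr1 and Egr3 kept an FDR under 0.05 in all 8 fits that left out a mouse, and Egr2 in 6 of 8 (FDR = 0.0510 without LLC1 1-5 and 0.0518 without PBS 1-3 in edgeR's test). The highest FDR of Egr1 was 0.0484, with robust empirical Bayes in edgeR. Fos passed with all genes with a count (edgeR FDR = 0.0157). The log2 fold change of Jun was 0.019 with limma-voom and ran from -0.18 to 0.15 with each mouse left out, above 0 without LLC1 1-3 (0.00092), LLC1 1-5 (0.0061), PBS 1-1 (0.15) or PBS 2-5 (0.04). The ranges were -0.31 to 0.13 for Junb and -0.41 to 0.23 for Atf3, above 0 only without PBS 1-1. Among other immediate early genes, 4 were lower with all genes with a count, and 2 (DESeq2) or 3 (all genes with a count) were higher. With each mouse left out, 0 to 3 were higher (Cebpb, Jund and Cebpd without PBS 1-1, Zfp36, Csrnp1 and Per1 without PBS 2-5). Mafk and Etv5 lost their calls with total-count scaling, which moved the median log2 fold change of all genes from -0.01 to -0.06 and the calls over all genes to 793 lower and 225 higher, from 743 and 663. Those calls also moved with each mouse left out, from 330 lower and 212 higher of 16303 genes without PBS 1-3 to 1041 and 908 of 16319 without PBS 1-1. The share over all genes set beside each count thus depends on single mice. The median SD of the 10 genes stayed within 1.5 times in the settings where it was computed, namely the scalings, the count filters and each mouse left out. The causes were not tested. No paired analysis was possible because the groups share 1 replicate code, carried by different mice.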

Other observations

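The mean deviation of the 10 genes from their group means was 0.49 and 0.44 on the log2 scale in PBS 1-1 and PBS 2-5, -0.35 and -0.57 in PBS 1-3 and PBS 2-1, and between -0.11 and 0.27 in LLC1 mice. Of all other genes tested, Mir133a-1, the gene of a muscle microRNA precursor, followed this profile most closely, with a root mean square difference of 0.0482 over the 8 mice, where the median over all genes was 0.378. Hand2, a transcription factor of the developing heart, was next (0.121), followed by Map7d2 (0.125), 4632427E13Rik (0.140), RP24-338G10.1 (0.146), Pram1 (0.152), Hils1 (0.156) and Gm26759 (0.158). None of these 8 genes passed edgeR's test between the groups, the lowest FDR being 0.377 for Map7d2. They were picked from all genes for this likeness, which is a description.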
